A study of Sus scrofa with 28 samples.

Results

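KLF4, KLF5, KLF10 and KLF11 are 4 Krüppel-like factors, transcription factors that bind GC-rich promoter elements through zinc fingers at their carboxyl end. Here they were followed in the loin muscle (Longissimus dorsi) of weaned piglets, together with the genes whose levels varied with theirs from animal to animal. They were chosen as the probe sets that the study's list of regulatory factors, or else the array annotation, names KLF4, KLF5, KLF10 or KLF11. The rule found 4 probe sets, 1 for each gene, among the 5226 of the deposited table, which name 2275 genes. The KLF5 probe set carries that name only in the study's list.

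KLF4 is best known as one of the reprogramming factors of pluripotent cells, and as a regulator of growth arrest and differentiation. KLF5 promotes proliferation and acts early in adipocyte differentiation, as shown in mouse. KLF10 and KLF11 were both first described as genes induced early by TGF-beta, the growth factor that restrains proliferation in many cell types, and both act mainly as repressors. The family also holds metabolic regulators of muscle such as KLF15, which acts on amino acid and lipid use.

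The animals were 28 male piglets aged 28 days, 14 DU×IB piglets from Duroc sires and Iberian sows and 14 purebred IB piglets from Iberian sires and sows. All piglets thus had Iberian dams, but the DU×IB piglets came from far fewer litters than the IB piglets, which the labels do not tell apart. Littermates were treated as independent animals, so the p-values measure the spread between these piglets and may be too small. RNA of the whole muscle was hybridized to 1 porcine expression array per piglet, and the values are log2 expression after GCRMA. Arrays carry no read depth, so the number of animals limits the precision.

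The arrays had been hybridized in 2 series. The labels do not name them, and they were told apart by the bacterial spike-in controls, which averaged 8.93 to 9.68 on 16 arrays and 6.19 to 7.01 on the other 12. Each series held as many DU×IB as IB piglets, 8 of each in the series of 16 and 6 of each in the series of 12. As 80.1% of the probe sets differed between the series at an adjusted p under 0.10 (limma), series was a block in every comparison of genetic types, and correlations were taken over deviations from the mean of the piglets of the same genetic type and series. The table holds only probe sets that varied between arrays, and of 18 muscle fibre markers only the myosin light chain MYL3 was measured, at 12.9 to 13.9 in DU×IB and 11.8 to 14.3 in IB.

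The factors covered most of the intensity range of the array. KLF10 lay highest, above 97.5% of all probe sets on average, KLF4 lay above 90.5%, KLF5 above 67.4% and KLF11 above 20.5%. A probe's brightness depends on its sequence, so these ranks do not order the transcripts themselves. KLF5 was the most variable of the 4 between piglets of the same genetic type and series, with an SD of 0.932 on the log2 scale that exceeded the SD of 94.6% of probe sets. The SDs of KLF11, KLF10 and KLF4 were 0.724, 0.632 and 0.533, against a median of 0.493 over all probe sets.

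No difference between the genetic types passed the threshold for any of the 4 factors. All 4 had a lower mean in DU×IB than in IB piglets, by 0.05 to 0.41 on the log2 scale, and the lowest adjusted p was 0.502 (limma, Benjamini-Hochberg over 5226 probe sets). In the same fit 2.77% of the probe sets were called at an adjusted p under 0.10, 2.07% as higher and 0.708% as lower in DU×IB. At an unadjusted p under 0.05, which 0 of the 4 factors reached, the shares were 13.8%, 8.42% higher and 5.4% lower. Without series as a block 0 of the 4 were called, beside 0.995% of the probe sets, 0.765% higher and 0.23% lower.

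KLF4 ranged from 8.76 to 10.1 with a median of 9.46 in DU×IB piglets, and from 8.60 to 11.4 with a median of 9.60 in IB piglets. The IB piglets covered the wider range, with 5 above every DU×IB piglet and 1 below every DU×IB piglet. The means were 9.49 ± 0.41 in DU×IB and 9.82 ± 0.62 in IB (SD, n = 14 each). The difference was -0.33 (SE 0.20, 95% interval -0.73 to 0.07, adjusted p = 0.502, limma), which is a 1.26-fold lower level in DU×IB with an interval that reached a 1.66-fold lower one. Without IB replicate 11, the highest, it was -0.21 (adjusted p = 0.693, limma).

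KLF11 ranged from 3.90 to 5.77 with a median of 4.79 in DU×IB piglets, and from 3.66 to 7.60 with a median of 5.25 in IB piglets. All but 2 of the DU×IB values were under the median of the IB values, while 3 IB piglets exceeded every DU×IB piglet and 2 lay below every DU×IB piglet. The means were 4.78 ± 0.49 in DU×IB and 5.19 ± 1.04 in IB (SD, n = 14 each), a difference of -0.41 (SE 0.27, 95% interval -0.97 to 0.14, adjusted p = 0.555, limma). The IB value of 7.60 belonged to replicate 9, and without that piglet the difference was -0.25 (adjusted p = 0.771, limma).

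KLF5 ranged from 6.16 to 9.36 with a median of 7.25 in DU×IB piglets, and from 5.99 to 9.70 with a median of 7.69 in IB piglets. Both groups spanned more than 3 log2 units and covered each other almost fully. The means were 7.53 ± 0.89 in DU×IB and 7.78 ± 1.05 in IB (SD, n = 14 each), a difference of -0.25 (SE 0.33, 95% interval -0.92 to 0.42, adjusted p = 0.826, limma). It was -0.07 without IB replicate 6, -0.11 without IB replicate 8 and -0.16 without DU×IB replicate 3.

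KLF10 ranged from 10.3 to 12.0 with a median of 11.4 in DU×IB piglets, and from 10.3 to 12.9 with a median of 11.1 in IB piglets. Here the medians and the means lay in opposite order, and 4 IB piglets exceeded every DU×IB piglet. The means were 11.31 ± 0.51 in DU×IB and 11.36 ± 0.86 in IB (SD, n = 14 each), a difference of -0.05 (SE 0.25, 95% interval -0.56 to 0.45, adjusted p = 0.960, limma). Without IB replicate 9, which was also highest for KLF10, it was 0.047 (adjusted p = 0.975, limma).

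**Figure D1:**
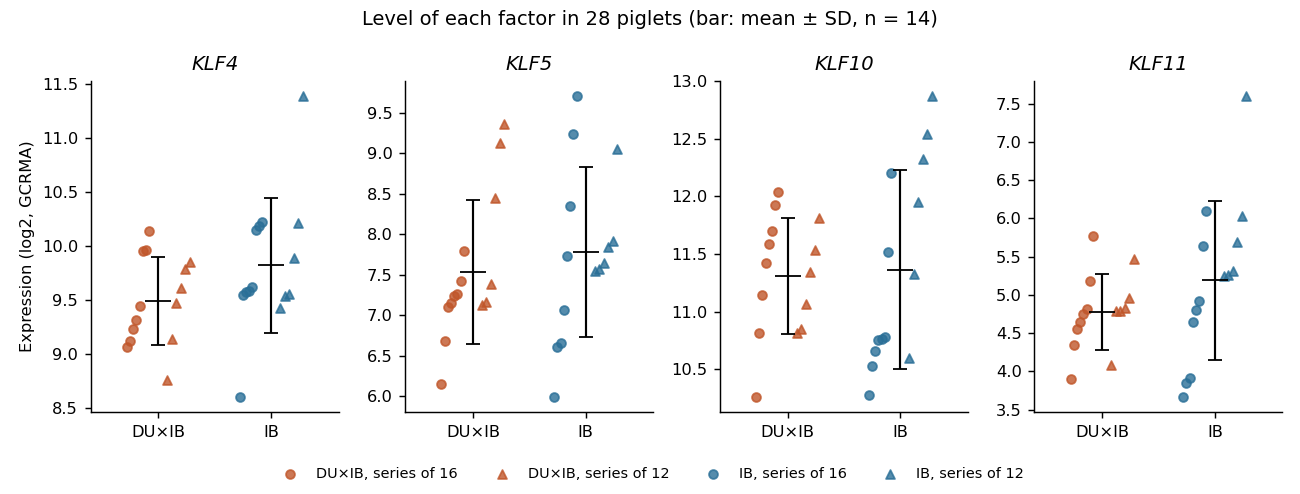
Log2 expression of KLF4, KLF5, KLF10 and KLF11 in each of the 28 piglets, DU×IB left and IB right, with circles for the series of 16 arrays, triangles for the series of 12 and bars for the mean ± SD of the 14 piglets of a genetic type. The genetic types overlap for every factor, and the highest IB values of KLF4 (11.4), KLF10 (12.9) and KLF11 (7.60) lie above all DU×IB piglets and in the series of 12.

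The spread of each factor around its series means, pooled over both series, was smaller in DU×IB piglets. Within the series of 12 alone KLF5 went the other way (SD 1.01 in DU×IB and 0.571 in IB, n = 6 each). The pooled SD of KLF11 was 0.512 in DU×IB and 0.887 in IB, and that of KLF10 was 0.524 in DU×IB and 0.723 in IB. That of KLF5 was 0.753 in DU×IB and 1.08 in IB, and that of KLF4 was 0.422 in DU×IB and 0.625 in IB. Their ratios, 0.577 to 0.725, lay below the median ratio of 0.794 over all probe sets, but 76.4% of all probe sets varied less in DU×IB. The smallest ratio, that of KLF11, was undercut by 17.0% of the probe sets, so a narrower spread in DU×IB was shared by most of the array; it was not tested for single genes, and the smaller number of DU×IB litters cannot be told apart from genetic type.

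The differences had other values in each series. In the series of 12, KLF11 averaged 4.82 ± 0.44 in DU×IB and 5.86 ± 0.91 in IB (SD, n = 6 each), where all 6 DU×IB values were under the IB median, whereas in the series of 16 it averaged 4.75 ± 0.56 in DU×IB and 4.69 ± 0.87 in IB (SD, n = 8 each). KLF10 likewise averaged 11.24 ± 0.40 in DU×IB and 11.94 ± 0.84 in IB in the series of 12, and 11.36 ± 0.60 in DU×IB and 10.93 ± 0.62 in IB in the series of 16. The difference for KLF11 was thus -1.04 (SE 0.37, adjusted p = 0.147, limma) within the series of 12 and 0.06 within the series of 16, and that for KLF10 was -0.70 (SE 0.34, adjusted p = 0.254, limma) and 0.43.

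The difference between the series was itself tested as an interaction in limma. It was -1.13 for KLF10 (SE 0.46, unadjusted p = 0.0212, adjusted p = 0.714) and -1.09 for KLF11 (SE 0.52, unadjusted p = 0.0456, adjusted p = 0.766), and neither passed the threshold. Of all probe sets 6.37% had an unadjusted interaction p under 0.05 and 0 of 5226 passed after adjustment. For KLF4 the differences within the series of 16 and of 12 were -0.15 and -0.56, and for KLF5 they were -0.56 and 0.17, with adjusted interaction p of 0.862 and 0.858.

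**Figure D2:**
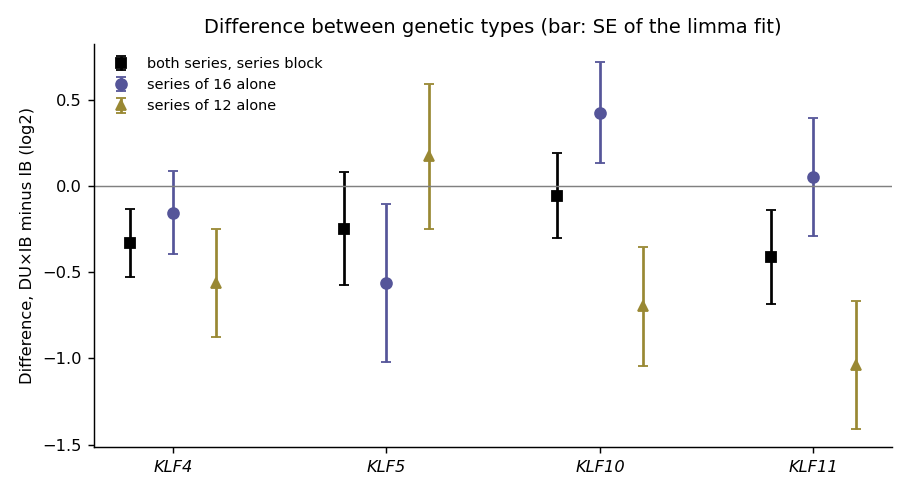
Difference in log2 expression, DU×IB minus IB, of each factor from the fit of both series (squares), the series of 16 alone (circles) and the series of 12 alone (triangles), with bars of 1 SE. KLF10 and KLF11 lie at 0.43 and 0.06 in the series of 16 and at -0.70 and -1.04 in the series of 12, while KLF4 lies below 0 in both.

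Of 17 other members of the KLF and SP families 4 were measured. In limma 0 were called, beside 2.77% of all probe sets, and 0 had an unadjusted p under 0.05, beside 13.8%. With 4 genes these counts are near the shares over all probe sets. KLF15 averaged 6.31 in DU×IB and 6.56 in IB (difference -0.25, adjusted p = 0.664). KLF9, which glucocorticoids induce, averaged 11.6 in DU×IB and 11.8 in IB (difference -0.20, adjusted p = 0.719). SP1 and SP3, the widely expressed relatives that bind the same GC boxes, differed by -0.22 and 0.04 (adjusted p = 0.647 and 0.955).

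The genes that lie upstream of the factors, or that are induced along with them, gave no call either. Of 38 listed genes of TGF-beta and activin signalling 9 were measured and 0 were called, beside 2.77% of all probe sets, with 1 at an unadjusted p under 0.05, beside 13.8% (limma). This is near the shares over all probe sets. The lowest p was that of SKI, a repressor of SMAD signalling, at 4.56 in DU×IB and 4.95 in IB (difference -0.39, adjusted p = 0.321), before TGIF1, a co-repressor (difference -0.37, adjusted p = 0.448), and the receptor TGFBR1 (difference 0.24, adjusted p = 0.549).

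Of 31 listed immediate early genes, which cells switch on within minutes of a stimulus, 22 were measured and 0 were called, beside 2.77% of all probe sets, with 2 lower at an unadjusted p under 0.05, beside 5.4% (limma), and a median difference of -0.02 against 0.02 over all 2275 genes with a name. NFKBIZ, an inducible IkappaB protein, had the lowest p (difference -0.76, adjusted p = 0.166), before GADD45B (difference -0.46, adjusted p = 0.326) and MAFF (difference -0.73, adjusted p = 0.361). Of 17 adipogenic regulators 7 were measured and 0 were called, beside 2.77% of all probe sets. An unadjusted p under 0.05 was found for 0 of the 7, beside 13.8% (limma), and with 7 genes both counts are near these shares. CEBPD, an early factor of adipocyte differentiation, differed by -0.44 (adjusted p = 0.507).

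No pair of the 4 factors correlated past the threshold. Among the 6 pairs in each genetic type, r of the deviations lay between -0.35 and 0.40, and 0 of 12 correlations were called at an adjusted p under 0.10, 0 also having an unadjusted p under 0.05 (permutation within series). The largest r in DU×IB was that of KLF5 and KLF11, 0.40 (p = 0.14), against -0.01 (p = 0.98) in IB. KLF10 and KLF11, the pair induced by TGF-beta, had r = -0.35 (p = 0.26, rho = -0.34, p = 0.27) in DU×IB and r = 0.34 (p = 0.26, rho = 0.51, p = 0.07) in IB (permutation tests, n = 14 each). With both genetic types pooled, an alternative added after the data were seen, r over the 28 piglets was between 0.00 and 0.27 for the 6 pairs, and again 0 had an unadjusted p under 0.05.

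Each factor was set against all other probe sets of the table, and the highest number of probe sets followed KLF5. Over the 28 piglets 12% of 5225 probe sets correlated with KLF5 at an adjusted p under 0.10 (permutation within genetic type and series), 400 positively and 227 negatively, against 0% for KLF4, KLF10 and KLF11. At an unadjusted p under 0.05 the shares were 23% for KLF5, 9.07% for KLF11, 8.02% for KLF10 and 5.45% for KLF4. In the separate genetic types KLF5 had 59 calls (1.13%) in DU×IB and 52 calls (0.995%) in IB. These lists shared 4 probe sets, all 4 with a positive r in both, or 6.78% of the DU×IB list and 7.69% of the IB list, and they were HSF2, KATNBL1, DNAJB4 and PLAGL1, a zinc finger factor. For KLF10 a single probe set with no gene name was called in DU×IB (0.0191%, r = -0.92, against -0.05 in IB).

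Part of the variation of KLF5 ran with a component common to the whole array. The first component of the deviations held 24.5% of their variance, and it accounted for 31.1% of the variance of KLF5, against a median of 17.8% over all probe sets, 3.25% for KLF11, 1.68% for KLF10 and under 0.01% for KLF4. That component followed the array medians (r = -0.94 over 28 arrays). Its part in the counts above was not tested. Below, r with the component removed is also given for the genes of highest and lowest r with KLF5. The same is given for the medians of the heat shock list and the fatty acid oxidation list, and for the metabolic pairs that passed with both genetic types pooled. For other genes and lists, r with KLF5 is given only with the component left in.

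Of the 5 genes of most similar pattern to KLF5, 3 were a heat shock factor and co-chaperones. Heat shock factors switch on chaperones, which refold damaged proteins, when cells are stressed. Among 2642 named probe sets, HSF2, a heat shock transcription factor, had the highest r with KLF5, 0.93 in DU×IB, 0.92 in IB and 0.92 over the 28 piglets (rho = 0.91). It was followed by KATNBL1, which binds the microtubule-severing protein katanin (r = 0.87), by the co-chaperones DNAJB4 (r = 0.87) and DNAJB9 of the endoplasmic reticulum (r = 0.85), and by the organic cation transporter SLC22A3 (r = 0.83). The lowest r belonged to ZNF618 and to ASB11, a substrate receptor of a ubiquitin ligase in muscle, both at -0.81. With the common component removed r was 0.81 for KATNBL1, 0.83 for DNAJB4, 0.78 for DNAJB9 and 0.80 for SLC22A3, and -0.74 for ZNF618 and -0.76 for ASB11.

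The value for HSF2 was much the same in all series and types. HSF2 and KLF5 had r = 0.96 and 0.93 in DU×IB piglets of the series of 16 and of 12, and 0.92 and 0.85 in IB piglets. Without the 2 piglets farthest from the median of KLF5, r was 0.90, and with the common component removed it was 0.88.

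A list of 28 heat shock and chaperone genes, drawn up after HSF2 and the DNAJ genes had been seen and so no independent support, had 18 measured members. Of these, 16 had a positive r with KLF5 over the 28 piglets and 12 were called in the test over the whole table, beside the 12% of all probe sets. Their median r was 0.63 in DU×IB and 0.61 in IB, against 0.11 and 0.06 over all genes with a name, and 0.54 over the 28 piglets with the component removed. HSPA4, a chaperone of the HSP110 group, had r = 0.83, the small heat shock protein HSPB8 0.72, HSPH1 0.70 and the endoplasmic reticulum chaperone HSPA5 0.68. HSP90AA1 and FKBP4, its co-chaperone, had r of 0.05 and -0.01, and HSF1, the main stress-activated factor, had -0.32 (adjusted p = 0.340 over the whole table, permutation). For the other 3 factors the median r with the same list was 0.20 (KLF4), -0.04 (KLF11) and -0.09 (KLF10).

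For KLF4 the highest r over the 28 piglets belonged to ID2, an inhibitor of helix-loop-helix factors (0.69), KCNIP2, a potassium channel subunit (0.65), IER5 (0.62) and CYR61 (0.62), both immediate early genes, and the small GTPase GEM (0.61). The lowest were FRMD8 (-0.73) and HOGA1, a mitochondrial enzyme of hydroxyproline breakdown (-0.66). CYR61 had nearly the same r in DU×IB (0.63) as in IB (0.62), while IER5 had 0.35 in DU×IB and 0.75 in IB.

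Of the 22 measured immediate early genes 20 had a positive r with KLF4, with a median of 0.25 in DU×IB and 0.33 in IB, against -0.09 and -0.03 over all genes with a name. BTG2, an antiproliferative gene, had r = 0.60, MAFF 0.53, NR4A2 0.46, JUN 0.45 and ATF3 0.43, whereas SRF, the factor that activates many of these genes, had -0.29. No single gene passed the test over the whole table, and the list as a group was not tested. The same list had a median r over the 28 piglets of 0.33 with KLF4, 0.22 with KLF10, 0.20 with KLF5 and -0.19 with KLF11.

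KLF10 was most like SIRT1, the NAD-dependent deacetylase that senses energy state. SIRT1 had r = 0.71 in DU×IB, 0.63 in IB and 0.65 over the 28 piglets, with 0.69 and 0.77 in DU×IB piglets of the series of 16 and of 12 and 0.67 and 0.70 in IB piglets. Next came CIRBP, a cold-inducible RNA-binding protein (0.64), RCL1, which acts in ribosomal RNA processing (0.62), the Mediator subunit MED17 (0.60) and ARRDC4, an arrestin-like protein whose gene responds to glucose (0.59). MGMT, a DNA repair enzyme, had the lowest r (-0.70), before ARG2, the mitochondrial arginase (-0.69), which lay at -0.74 in DU×IB and -0.71 in IB.

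KLF11 was most like ACBD6, an acyl-CoA binding protein (0.77), and GABARAPL1, which takes part in autophagosome formation (0.73). GCLM, a subunit of the enzyme that starts glutathione synthesis, had 0.71, SMPDL3A 0.70 and CEBPD 0.68, while PEBP4 (-0.74) and JPH2 (-0.70), which holds the junctions of muscle membranes together, were lowest. ACBD6 had r = 0.45 in DU×IB and 0.86 in IB, and GABARAPL1 had 0.56 in DU×IB and 0.79 in IB. Without the 2 piglets farthest from the KLF11 median, r over the rest was 0.55 for ACBD6 and 0.61 for GABARAPL1. PEBP4 and JPH2 both had -0.54 after each array had been centred on its median.

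Of a list of 19 atrophy and autophagy genes 12 members were measured. It was drawn up after GABARAPL1 had been seen and includes that gene, so its values are no independent support. The r of the members with KLF11 was positive for 6 of 12 in DU×IB, 12 of 12 in IB and 11 of 12 over the 28 piglets. Over all genes with a name it was positive for 1119, 1262 and 1254 of 2274. The median was 0.15 in DU×IB and 0.33 in IB, against -0.01 and 0.06 over all genes with a name. FBXO32, the muscle ubiquitin ligase atrogin, had 0.60 in DU×IB and 0.51 in IB. MAP1LC3B, an autophagosome protein, had -0.11 in DU×IB and 0.78 in IB, and 0 members passed the test over the whole table.

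**Figure D3:**
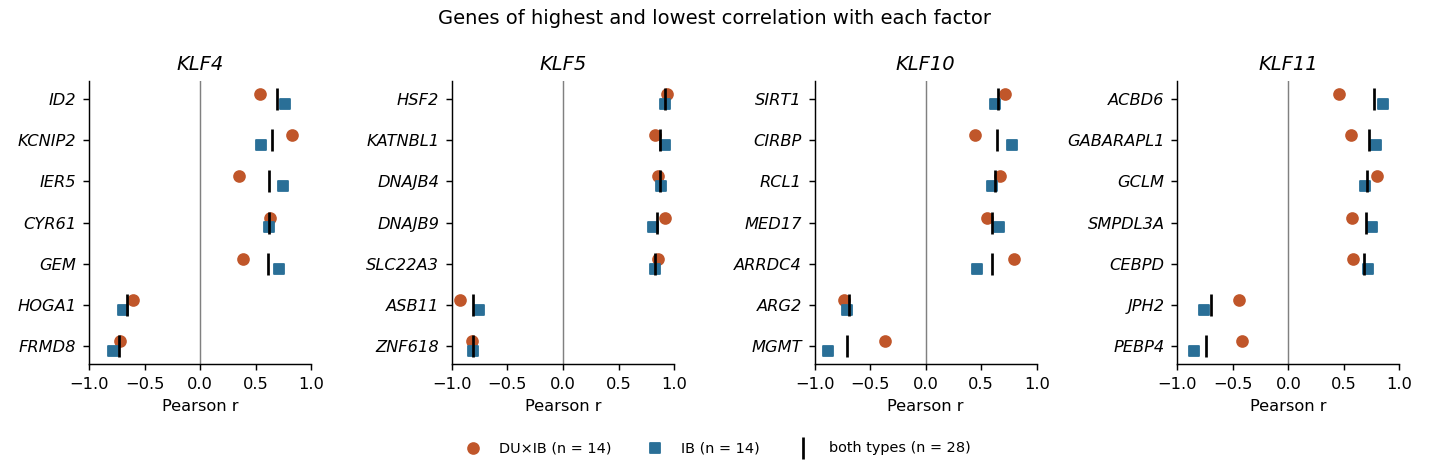
Pearson r of deviations between each factor and the 5 genes of highest and 2 of lowest r, in DU×IB piglets (circles), IB piglets (squares) and all 28 piglets (bars). HSF2 lies highest with KLF5, at 0.93 in DU×IB and 0.92 in IB, while the symbols lie far apart for some pairs, such as MGMT with KLF10 (-0.37 in DU×IB and -0.88 in IB) and ACBD6 with KLF11 (0.45 in DU×IB and 0.86 in IB).

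The muscle held other cell types, and with whole-tissue RNA a change in the number of cells of a type and a change of RNA per cell cannot be told apart. The 3 measured fibroblast markers COL1A1, POSTN and THY1, of 9 listed, had a mean level from 9.15 to 10.5 in DU×IB and from 6.66 to 9.85 in IB, 2 of the 3 being called higher in DU×IB, as were 2.07% of all probe sets (limma), and their r with KLF11 was 0.57, 0.14 and -0.06 in DU×IB and -0.61, -0.45 and -0.63 in IB. The 8 measured macrophage markers of 15 had a mean level from 5.25 to 5.91 in DU×IB and from 5.45 to 7.93 in IB. All 8 were lower on average in DU×IB, as were 1066 of 2275 genes with a name. Of the 8, 3 had an unadjusted p under 0.05, beside 5.4% of all probe sets, and 0 were called, beside 0.708% (limma). Their r with KLF11 was positive for 5 of 8 in DU×IB and 7 of 8 in IB, and over the 28 piglets for all 8, the highest being 0.44 for CD163. Among 2274 named genes 1119 had a positive r with KLF11 in DU×IB, 1262 in IB and 1254 over the 28 piglets. The 3 measured adipocyte markers of 9, CFD, PNPLA2 and FABP4, had a median r with KLF11 of 0.35 in DU×IB, 0.36 in IB and 0.39 over the 28 piglets. Over all genes with a name these medians were -0.01, 0.06 and 0.04. Over the 28 piglets 2 of the 3 adipocyte markers had a positive r and 1 a negative one. The part of all these markers in the KLF11 correlations was not tested.

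Against metabolic genes, 0 of 552 correlations passed the threshold. The lists held 182 genes of lipid, glucose and amino acid metabolism and of insulin and energy signalling, of which 69 were measured, giving 276 pairs in each genetic type. The lowest adjusted p was 0.213, and 62 pairs had an unadjusted p under 0.05, 33 in DU×IB and 29 in IB (permutation within series). Read against the whole table, 10 of 69 KLF5 pairs in DU×IB stood beside 16% of all probe sets at that p, 15 of 69 KLF11 pairs in IB beside 11.6%, 9 of 69 KLF10 pairs in DU×IB beside 9.03%, and 7 of 69 KLF4 pairs in DU×IB beside 8.08%. In the other combinations the counts were 6 for KLF5 in IB (12%), 7 for KLF11 in DU×IB (5.8%), 5 for KLF10 in IB (6.68%) and 3 for KLF4 in IB (2.87%).

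The pairs of lowest p are given as values. KLF5 had r = 0.86 (p = 0.0005, adjusted p = 0.213, rho = 0.83, p = 0.00148) with FABP3, the fatty acid carrier of muscle, in DU×IB, with 0.68 and 0.93 in the series of 16 and of 12 and 0.77 without the 2 piglets farthest from the KLF5 median. In IB the same pair had r = 0.17 (p = 0.476, permutation tests, n = 14 each), and the test of the difference between the types gave an adjusted p of 0.525. With PRKAG2, a regulatory subunit of the energy sensor AMPK, KLF5 had r = 0.67 in DU×IB and r = 0.70 (p = 0.00128, adjusted p = 0.213, rho = 0.77, p = 0.00134) in IB, where it was 0.61 without the 2 farthest IB piglets.

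KLF10 had r = -0.79 (p = 0.00268, adjusted p = 0.224, rho = -0.86, p = 0.00032) with GLUL, the glutamine synthetase, in DU×IB, where both series showed it (-0.79 and -0.81) and the value without the 2 farthest piglets was -0.76. For the mean of the 2 probe sets of GLUL r was -0.70, and after median centring it was -0.66. In IB, KLF10 had r = -0.70 (p = 0.00545, adjusted p = 0.234, rho = -0.53, p = 0.058) with QDPR, which regenerates the cofactor tetrahydrobiopterin, and r was -0.60 without the 2 farthest piglets and -0.45 after median centring.

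KLF11 had r = -0.79 (p = 0.00114, adjusted p = 0.213, rho = -0.82, p = 0.00087) with SREBF2, the regulator of cholesterol synthesis, and r = -0.85 (p = 0.00162, adjusted p = 0.213, rho = -0.77, p = 0.00443) with the glycolytic enzyme ENO1, both in IB. Without the 2 piglets farthest from the KLF11 median these were -0.62 and -0.56. KLF4 had r = 0.72 (p = 0.00767, adjusted p = 0.234, rho = 0.68, p = 0.0148) with the glucose transporter SLC2A1 in DU×IB, 0.61 without the 2 farthest piglets, and r = -0.57 (p = 0.0213, adjusted p = 0.347, rho = -0.55, p = 0.0403) with ANGPTL4, an inhibitor of lipoprotein lipase, in IB, -0.43 without them.

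The count of metabolic correlations depended on how the hybridization series were treated. With the raw values of both series pooled within each genetic type, 23 of 552 pairs were called, 10 in DU×IB and 13 in IB, and the lowest adjusted p was 0.0207. For raw values the share called over all probe sets was not computed, so this count cannot be read as particular to metabolic genes. For KLF11 and SREBF2 in IB, r was then -0.86, and for KLF5 and FABP3 in DU×IB it was 0.87. KLF5 and KLF11 themselves were lower in the series of 16 than in the series of 12, by 0.63 (adjusted p = 0.0848) and 0.62 (adjusted p = 0.0419, limma). At an adjusted p under 0.10, 80.1% of all probe sets differed between the series. The difference was -0.44 for KLF10 (adjusted p = 0.109) and -0.11 for KLF4 (adjusted p = 0.620, limma). The array medians had a median of 6.59 in the series of 16 and 7.02 in the series of 12. A raw r includes such offsets where both genes of a pair have them.

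**Figure D4:**
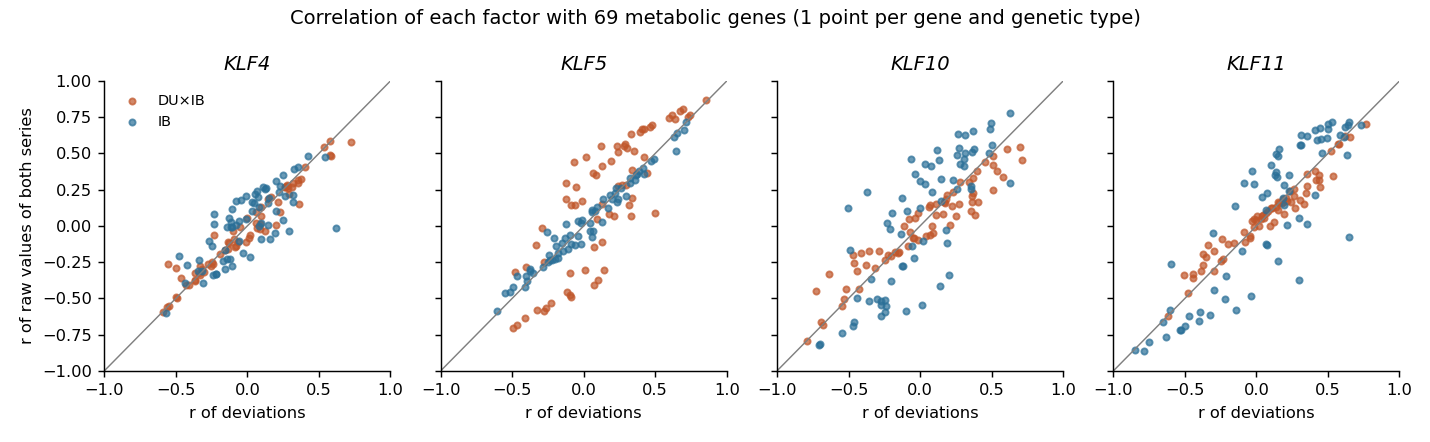
Pearson r of each factor with 69 metabolic genes from deviations within genetic type and series (horizontal) and from raw values of both series (vertical), 1 point per gene, in DU×IB and IB piglets (n = 14 each), with the line of equality. Points off the line are pairs whose r depended on the treatment of series, and 23 raw correlations passed the threshold against 0 of the deviations. The share over all probe sets was not computed for raw values.

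With the deviations of both genetic types pooled, an alternative added after the data were seen, 4 of 276 metabolic pairs passed, all 4 of them positive. KLF5 went with PRKAG2 (r = 0.69, p = 5e-05, adjusted p = 0.0138), with PPARGC1A, the coactivator of mitochondrial biogenesis (r = 0.69, p = 0.00013, adjusted p = 0.0179), and with PDK4, the kinase that spares glucose by shutting pyruvate dehydrogenase (r = 0.68, p = 0.00099, adjusted p = 0.0683). KLF10 went with SIRT1 (r = 0.65, p = 0.00032, adjusted p = 0.0294, permutation within genetic type and series). All 4 pairs had a positive r in every combination of genetic type and series, from 0.36 to 0.97.

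These 4 were named after their values had been seen. Rank correlations were 0.63, 0.68, 0.76 and 0.63 in that order (p = 0.00058, 0.00023, 3e-05 and 0.00064), and without the 2 piglets farthest from the factor's median r was 0.63, 0.67, 0.76 and 0.59. With the common array component removed r was 0.57, 0.64, 0.58 and 0.68. PPARGC1A and PDK4 belong to a list of fatty acid oxidation and ketone use with 14 measured genes. The median r of that list with KLF5 was 0.28 over the 28 piglets and -0.24 with the component removed. Over all genes with a name these medians were 0.07 and -0.06. Adjusted over the whole table (permutation), 4 of 69 metabolic genes passed with KLF5. This is 5.80%, a smaller share than the 12% of all probe sets that passed with KLF5. The 3 KLF5 pairs named here were among them, at 0.00475, 0.00799 and 0.0244, and the KLF10 pair did not pass (0.376).

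**Figure D5:**
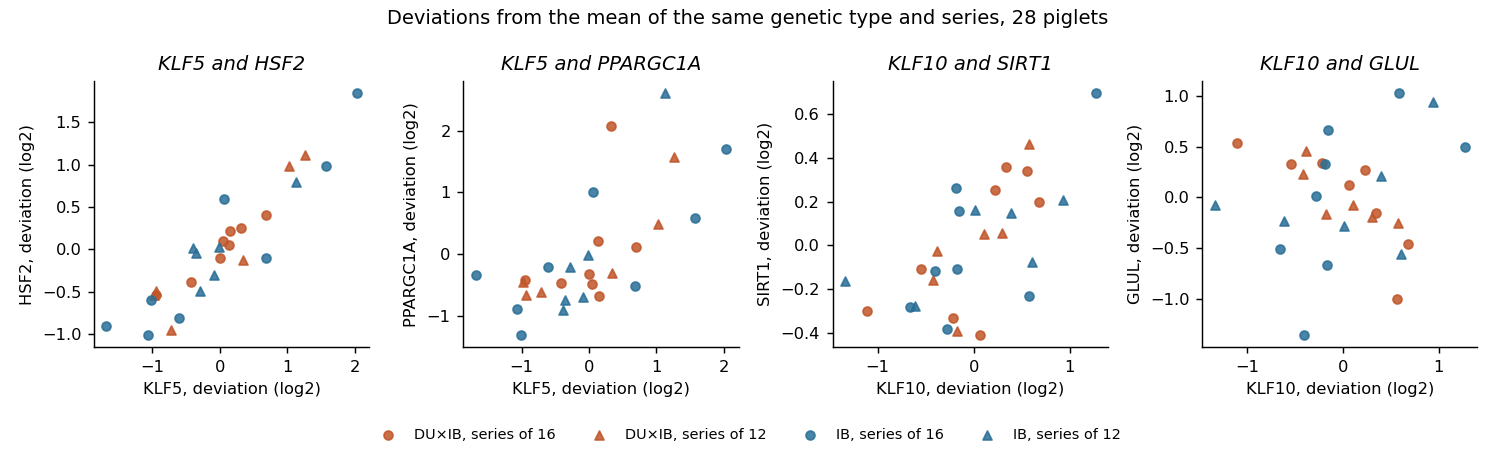
Deviations from the mean of the same genetic type and series, on the log2 scale, for KLF5 with HSF2 and PPARGC1A and for KLF10 with SIRT1 and GLUL, 1 point per piglet (DU×IB and IB, circles for the series of 16, triangles for the series of 12). KLF5 and HSF2 follow a common line in both genetic types (r = 0.93 and 0.92), and KLF10 with GLUL runs downward in DU×IB (r = -0.79) and upward in IB (r = 0.48).

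Whether a correlation differed between the genetic types was tested by permuting the type of the piglets within series. The 6 pairs of factors and 276 metabolic pairs gave 0 calls among 282 tests, and 22 unadjusted p were under 0.05. The test was not run over all probe sets, so these counts cannot be set against a share of the whole table. The lowest p belonged to KLF10 with GLUL, r = -0.79 in DU×IB and 0.48 in IB (difference of Fisher z -1.61, p = 0.00063, adjusted p = 0.178). It was followed by KLF11 with SREBF2, r = 0.35 in DU×IB and -0.79 in IB (difference 1.43, p = 0.00354, adjusted p = 0.395), and by KLF11 with SIRT1, r = -0.35 in DU×IB and 0.50 in IB (difference -0.92, p = 0.0042, adjusted p = 0.395). For KLF11 with SIRT1 the sign in DU×IB was not the same in both series, with -0.61 in the series of 16 and 0.17 in the series of 12. For KLF11 with SREBF2, r in DU×IB was 0.47 in the series of 16 and -0.002 in the series of 12. In IB that pair had r = -0.84 and -0.71.

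KLF10 with GLUL had the same sign within both series of a genetic type, -0.79 and -0.81 in DU×IB and 0.60 and 0.38 in IB. Its adjusted p ranged from 0.0447 by the parametric Fisher z test and 0.0677 for ranks to 0.437 after median centring. The levels of GLUL itself were 12.7 in DU×IB and 13.0 in IB for its brighter probe set (difference -0.36, adjusted p = 0.481, limma).

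Regulatory impact factors score how far a factor's correlations with a set of genes change between the genetic types. RIF1 weights each squared change of correlation by the gene's mean level and its difference between the types, and RIF2 compares the products of level and correlation. Both were computed for 310 factors against the 256 genes of the study's list, which was chosen on these arrays, so the scores are a description only. DU×IB was taken as the first condition, and the sign turns when the conditions are exchanged.

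KLF11 had the largest absolute RIF1 of all 310 factors (z = 3.41) and ranked 8 for RIF2 (z = -2.43). KLF10 ranked 28 for RIF1 (z = 1.65) and 27 for RIF2 (z = -1.74), KLF5 ranked 270 and 36 (z = -0.15 and 1.55), and KLF4 ranked 54 and 286 (z = 1.14 and -0.09). When series means were removed from the correlations, KLF11 ranked 10 for RIF1 (z = 2.43) and 54 for RIF2 (z = -1.29), and KLF10 ranked 24 and 214. By ranks KLF11 stood at 10 for RIF1 and 16 for RIF2, and after median centring at 1 for RIF1 and 160 for RIF2 (z = -0.60).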

How the data were processed

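The values were deposited by the authors as log2 expression after GCRMA of GCOS scans (tools per the labels; versions not used here), for 28 arrays of 1 colour and the 5226 probe sets left by their variation filter. The genetic type came from the sample titles. Probe sets were named from the study's factor list and gene list (572), else from the array annotation where it gave 1 gene (2073); 2581 had no single name. The hybridization series was taken from 10 bacterial spike-in probe sets at their largest gap. Genetic types were compared by limma 3.58.1 in R 4.3.3 with series as a block, Benjamini-Hochberg adjustment over all 5226 probe sets and a threshold of 0.10. Correlations used deviations from the mean of genetic type and series and 100000 resamples within series, two-sided and adjusted over each family of pairs by Benjamini-Hochberg (Python 3.11.15). A gene with several probe sets was taken at the brightest in pair tests and lists; in the search for similar genes each probe set was ranked and the best kept, so CEBPD differs between them.

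The genes named by rule were all probe sets of the factors and other KLF and SP genes, and the 5 of highest and 2 of lowest r per factor. The rule also took the 2 metabolic pairs of lowest p per factor, the 3 pairs of lowest p for a difference between types, and up to 3 members per regulatory list. Other genes were named after their values had been seen, among them further members of lists and pairs that passed only in an alternative. The members and lists were chosen with earlier results of these data known. Alternatives were other blocks, normalizations, priors, array weights, single series, piglets left out, raw values, ranks and median centring. The fits were tested on simulated data. No sequences or coordinates are shown, as no reference sequence was used here.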

Additional observations from a re-analysis of the deposited data

Results flagged for a closer look

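In 3 of 16 combinations of factor, genetic type and series, 1 piglet lay far from the others by Dixon's criterion, which chance meets in about 1 of 20 groups. All 3 were IB piglets. KLF11 was 7.60 in IB replicate 9, against 5.25 to 6.04 in the other IB piglets of the series of 12. KLF5 was 9.05 in IB replicate 10, against 7.54 to 7.92 in the other IB piglets of that series. KLF4 was 8.60 in IB replicate 2, against 9.55 to 10.2 in the other IB piglets of the series of 16.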

How the results depend on the processing

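No alternative brought a factor's difference between genetic types past the threshold. The replicate numbers did not pair the piglets: over 14 pairs the same-numbered piglets' deviations correlated from -0.33 to 0.54 (median -0.07), with 2 above 0.1, and 1 pair was the best match of its number. With the replicate block and series block the differences stayed at -0.33, -0.25, -0.05 and -0.41 for KLF4, KLF5, KLF10 and KLF11 (adjusted p = 0.534, 0.803, 0.961 and 0.606). The sign turned for KLF5 in the series of 12 alone (0.17), for KLF11 in the series of 16 alone (0.055), and for KLF10 in the series of 16 alone (0.43) and after quantile normalization (0.00101). With array weights the adjusted p of KLF4 was 0.176 (difference -0.50). Leaving out single piglets gave -0.42 to -0.21 for KLF4, -0.37 to -0.07 for KLF5, -0.14 to 0.047 for KLF10 (above 0 in 7 of 28, highest without IB replicate 9) and -0.51 to -0.25 for KLF11.

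Metabolic correlations called numbered 23 from raw values, 1 without the 2 farthest piglets (KLF10 and FOXO1 in DU×IB, r = -0.79) and 4 with both genetic types together, in which KLF10 and GLUL turned to r = 0.087. Differences between types called numbered 2 by the Fisher z test (KLF10 with GLUL and FOXO1) and 2 for ranks (KLF10 with GLUL, KLF4 with CYP3A4). Factors with an absolute impact z above 1.96 numbered 1, and 2 for ranks, where KLF10 reached 2.01. The cause of these changes was not tested. With 14 piglets a type, the intervals still allowed a 1.47-fold to 1.96-fold lower level in DU×IB, and at their other end a 1.05-fold to 1.36-fold higher one.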
